A study of Mus musculus with 6 samples.

Results

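The reproductive homeobox (Rhox) genes form a cluster on the mouse X chromosome, and 4 of them, Rhox5, Rhox6, Rhox9 and Rhox13, were described here in ovaries that lack Dmrt1 and in wild-type ovaries. They were taken as every probe set whose platform annotation names exactly 1 of the 4 symbols. That gave 4 probe sets, 1 for each gene, of 45101 on the array, and 0 probe sets named several Rhox genes. The 4 genes were proposed with their knockout against wild-type values already known, so those values are given as a description without a test. The RefSeq gene table lists 42 Rhox genes and pseudogenes, and the other 38 had 0 probe sets annotated to them and were not analysed here.

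The study hybridised 6 Affymetrix arrays, 3 of ovaries labelled as dmrt1 knockout and 3 of ovaries labelled as WT, all dissected at E15.5, when ovarian germ cells are in meiotic prophase. Dmrt1 encodes a DM-domain transcription factor of germ cells and testis, its removal was conditional per the design text, and the comparison asks what changes in the fetal ovary when it is missing. Replicates are numbered 1 to 3 in either group. The Cre driver, the strain, the alleles carried by the wild type and any pooling of animals are not given in the sources used here, so the p-values speak only for the spread among these arrays, which could be technical.

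RHOX proteins are homeodomain transcription factors made mainly in gonads, epididymis and placenta. Rhox5, first named Pem, is best known from Sertoli cells, where androgen receptor drives one of its promoters, and from placenta and embryonic stem cells, and DNA methylation silences it in most other cells. Rhox6 and Rhox9, first named Psx1 and Psx2, are close relatives known from placenta and from fetal germ cells, with higher levels in ovary than in testis and a reported dependence on the histone demethylase KDM6A. Rhox13 is known from germ cells of the fetal ovary and the testis.

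The 250 bases before the RefSeq start were at hand for Rhox5 and Rhox13, members that differed in their pattern on the arrays. They are shown 5′ to 3′ from RefSeq on GRCm38.p6, both on the plus strand, with each CpG, the dinucleotide that carries methylation, in capitals. The Rhox5 window is chrX:37754358-37754607 and the Rhox13 window is chrX:38120590-38120839.
Rhox5: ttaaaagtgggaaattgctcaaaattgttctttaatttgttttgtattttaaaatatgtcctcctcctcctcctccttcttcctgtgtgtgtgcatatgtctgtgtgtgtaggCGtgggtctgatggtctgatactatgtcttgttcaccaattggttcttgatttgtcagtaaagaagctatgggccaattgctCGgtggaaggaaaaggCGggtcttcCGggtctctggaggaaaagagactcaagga
Rhox13: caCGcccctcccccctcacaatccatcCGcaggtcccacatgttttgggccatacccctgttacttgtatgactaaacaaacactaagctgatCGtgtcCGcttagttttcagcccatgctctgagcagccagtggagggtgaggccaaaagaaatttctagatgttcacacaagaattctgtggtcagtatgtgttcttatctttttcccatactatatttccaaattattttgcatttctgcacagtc
Both windows hold 4 CpGs, a count that 44.4% of 32841 promoter windows in the same table do not exceed (median 6). In Rhox5, 3 of the 4 lie in the last 55 bases, whereas in Rhox13 all 4 lie at least 151 bases from the start. Sequence matches were counted on both strands. The GC box GGCGGG, bound by SP proteins, occurs once in the Rhox5 window, 41 bases before the start, and in 32.5% of all windows. The ETS core CCGGAA occurs once, 33 bases before the start, and in 12% of all windows. These 2 matches do not overlap each other, each contains a CpG of the window, and the Rhox13 window holds neither. The letters ACANTGT, the core of the DM-domain motif, occur in neither window and in 6.5% of all windows, and the E-box CACGTG occurs in neither and in 6.0% of all windows.

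Array values are GCRMA intensities on a linear scale, and differences are given on the log2 scale as knockout minus wild type. For Rhox9, knockout replicates 1, 2 and 3 had 2050, 925 and 935 intensity units, against 262, 246 and 253 on wild-type replicates 1, 2 and 3. Every knockout array lay above every wild-type array, and knockout replicate 1 stood above the other two, which nearly coincided. The mean was log2 10.24 ± 0.66 in knockout and 7.99 ± 0.05 in wild type (SD, n = 3 each), a difference of 2.25 or 4.77-fold. The wild-type arrays were nearly level, so almost all of the spread came from the knockout side. In bulk ovary, more cells that make a transcript and more of it per cell cannot be told apart.

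Rhox6, the close relative of Rhox9, read 257, 147 and 139 units on knockout replicates 1 to 3, against 48.5, 37.0 and 40.0 units on wild-type replicates 1 to 3. It had the same shape as Rhox9, with separate groups and knockout replicate 1 on top. The means were log2 7.44 ± 0.49 in knockout and 5.38 ± 0.20 in wild type (SD, n = 3 each), a difference of 2.06 or 4.18-fold. Whether RNA of one of these relatives also binds the probes of the other was not tested.

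Rhox5 read 852, 234 and 242 units on knockout replicates 1 to 3, against 72.5, 74.4 and 69.5 units on wild-type replicates 1 to 3. Its wild-type arrays were again nearly level, and knockout replicate 1 was farther from the other knockout arrays than for any other of the 4 genes. The means were log2 8.51 ± 1.06 in knockout and 6.17 ± 0.05 in wild type (SD, n = 3 each), a difference of 2.34 or 5.05-fold.

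Rhox13 had a different pattern. It read 2908, 2839 and 2674 units on knockout replicates 1 to 3, against 2673, 2936 and 2230 units on wild-type replicates 1 to 3. The groups overlapped, and knockout replicate 1 did not stand apart. The means were log2 11.45 ± 0.06 in knockout and 11.34 ± 0.20 in wild type (SD, n = 3 each), a difference of 0.11 or 1.08-fold.

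**Figure D1:**
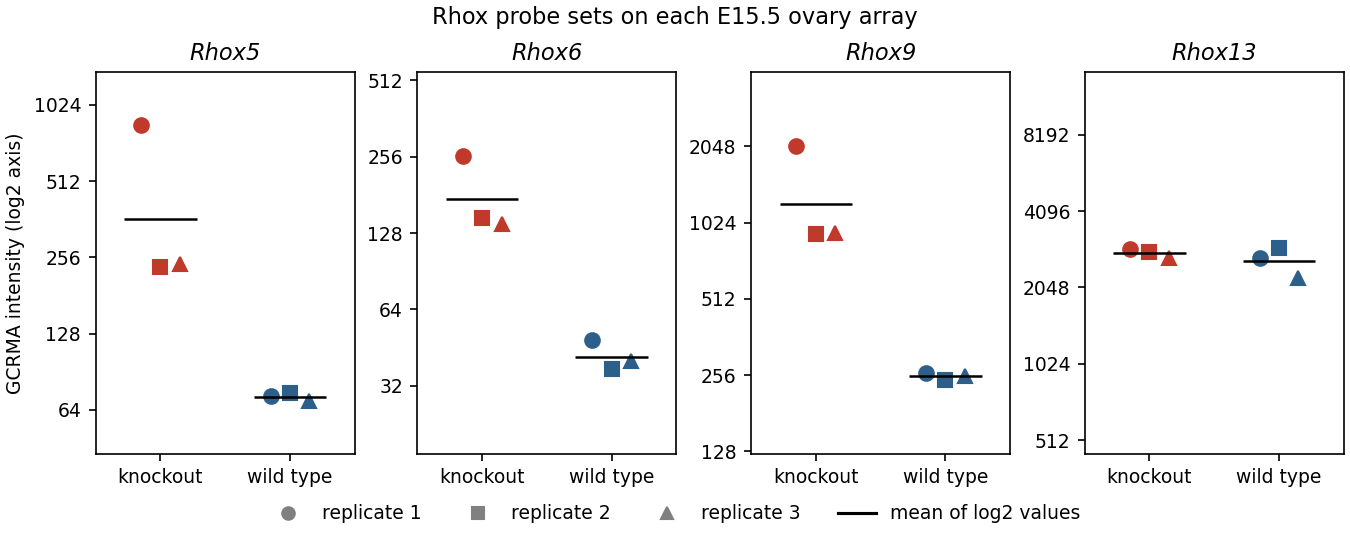
GCRMA intensity of the 4 Rhox probe sets on each array, on log2 axes that span the same number of doublings, with knockout left of wild type. Symbols mark the replicate and the line is the mean of the 3 log2 values. Rhox5, Rhox6 and Rhox9 have separate groups, with knockout replicate 1 highest, while the groups overlap for Rhox13.

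For Rhox5, Rhox6 and Rhox9, 3 of the 4 genes, all knockout arrays lay above all wild-type arrays, which was so for 12.3% of 11897 tested genes. Since these genes were proposed from this contrast, nothing is read from that count. Among the tested genes, 16 had a difference as large as or larger than that of Rhox5, 17 as that of Rhox9 and 22 as that of Rhox6, each count including the gene itself, against 4040 for Rhox13. A gene was tested when a probe set naming it alone reached log2 4 (16 intensity units) on at least 3 arrays, through its brightest such probe set, and all 4 members passed.

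The levels of Rhox5, Rhox6 and Rhox9 moved together across the 6 arrays. Pearson r was 0.99 between Rhox6 and Rhox9, 0.99 between Rhox5 and Rhox9 and 0.97 between Rhox5 and Rhox6, and 0.44 to 0.48 between Rhox13 and each of the others. These 6 points share 2 genotypes and the same arrays, so r mostly restates the group difference together with knockout replicate 1.

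The other genes most like each member over the 6 arrays were taken from 11893 tested genes outside the cluster. For Rhox9 these were Sp3 (r = 0.998), which encodes a zinc finger factor that binds GC boxes, Pdcd2 (0.995) and Epb41l4b (0.994). Sp3 also led for Rhox6 (0.997), followed by Tesc (0.994), encoding a calcium-binding protein, and Rpa2 (0.994), a subunit of the single-strand DNA binding complex of replication. For Rhox5 they were Phf19 (0.998), a Polycomb-associated protein, Scarb1 (0.997), a lipoprotein receptor, and Syt9 (0.996), a synaptotagmin. Phf19 and Tesc were under the filter level of 16 units on all wild-type arrays. Both were thus among the tested genes only through their higher knockout values. The genes most like Rhox13 were different, with Tesmin (0.997), a gene named for its expression in testis, ahead of Snx14 (0.985) and Ccdc57 (0.978). All of these were picked as the highest r of 11893 genes over only 6 arrays, so they are a description without a test. For Rhox5, Rhox6 and Rhox9, r again mostly restates the group difference together with knockout replicate 1.

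Knockout replicate 1 also differed from the other arrays in Xist, the RNA that silences an X chromosome in female cells and so bears on an X-linked cluster. The 3 Xist probe sets averaged log2 1.81 on knockout replicate 1, 9.85 on knockout replicate 2 and 9.75 on knockout replicate 3, against 10.89, 10.91 and 10.68 on wild-type replicates 1, 2 and 3. Uty, Kdm5d and Eif2s3y, which lie on the Y chromosome, were under the filter level on all 6 arrays. Dmrt1 itself was near the floor everywhere, at 8.55, 5.97 and 7.46 units in knockout and 8.47, 8.51 and 13.0 units in wild type, and does not check the labels.

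Without knockout replicate 1, the differences were 1.72 log2 units (3.30-fold) for Rhox5, 1.78 (3.44-fold) for Rhox6, 1.87 (3.67-fold) for Rhox9 and 0.09 (1.06-fold) for Rhox13. Since knockout replicate 1 was the highest array for Rhox5, Rhox6 and Rhox9, leaving it out could not make their groups overlap. Their folds became more alike. Xist on knockout replicates 2 and 3 (log2 9.85 and 9.75) was also under that of every wild-type array. The part of Xist in these values was not tested. Knockout replicate 1 exceeded the mean of knockout replicates 2 and 3 by 1.84 log2 units (3.58-fold) for Rhox5, 1.14 (2.204-fold) for Rhox9, 0.84 (1.79-fold) for Rhox6 and 0.08 (1.06-fold) for Rhox13. Over all tested genes the median of this excess was -0.02, and 0.118%, 0.504%, 1.43% and 34.3% of genes were at or above the values of Rhox5, Rhox9, Rhox6 and Rhox13. Over 416 tested X-linked genes the median excess was -0.14, and Rhox5 had the highest value of them. The 4 genes were proposed from a contrast that includes knockout replicate 1, so these ranks are a description.

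**Figure D2:**
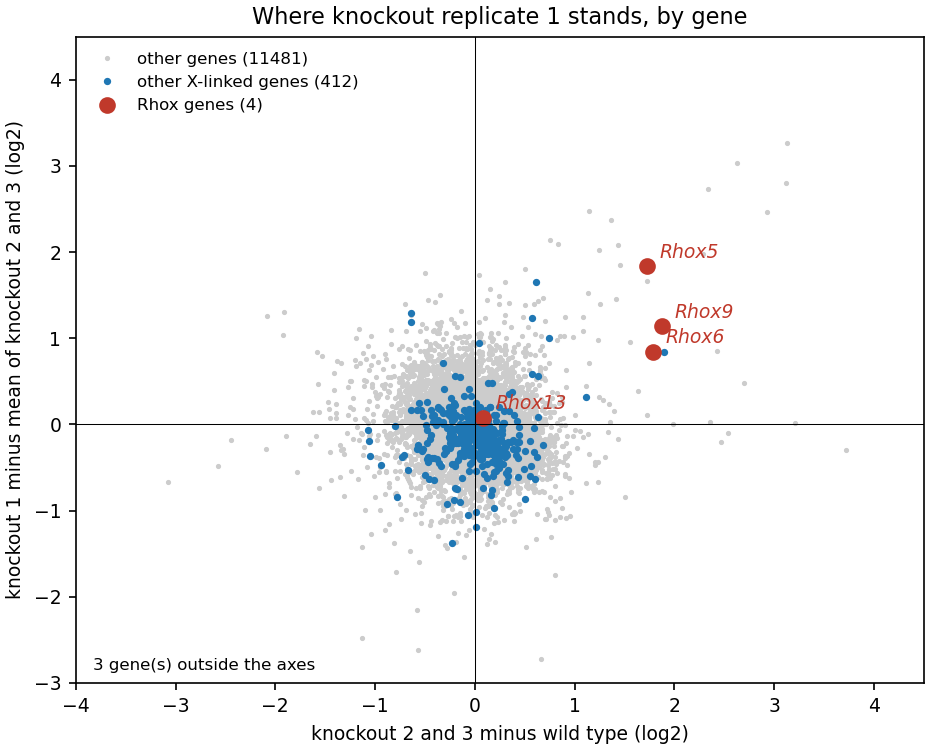
Each point is a tested gene, with the difference between knockout replicates 2 and 3 and wild type on the horizontal axis and the excess of knockout replicate 1 over knockout replicates 2 and 3 on the vertical axis, both in log2 units. Rhox5, Rhox6 and Rhox9 lie to the upper right, Rhox13 lies near the origin, most other X-linked genes (blue) lie around or under the horizontal line, and 3 genes, Xist among them, fall outside the axes.

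Over the X chromosome as a whole the median difference was near 0. Over 412 X-linked genes outside the cluster the median difference was -0.03 log2 units, against 0.02 over 11439 autosomal genes, and 4 X-linked genes rose and 13 fell (limma adjusted p under 0.05). That is 4.13% of the X-linked genes called in either direction, beside 3.48% of the autosomal ones. By array, the X-linked median relative to the autosomal one was -0.14, 0.04 and -0.06 on knockout replicates 1 to 3, against 0.01, -0.02 and 0.002 on wild-type replicates 1 to 3. The X-linked offset of knockout replicate 1 was downwards, while its excess in Rhox5, Rhox6 and Rhox9 was upwards. A median over many genes does not describe a single locus, and whether an X-wide shift bears on these genes was not tested.

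The other genes in and beside the cluster gave the nearest comparison. Of 85 X-linked genes within 2 Mb of it, 26 were on the array and 21 were tested. These comprise 15 ahead of Rhox5 and 6 beyond Rhox13. Of those 6, Zbtb33 and Tmem255a lie ahead of the last annotated Rhox entry, within the span of the cluster, and 4 lie beyond it. Of the 21, 0 rose, 0 fell and 21 did not pass, with 1 at an unadjusted p under 0.05 (limma), where 3.55% of all tested genes were called and 17.4% were at an unadjusted p under 0.05. Their median difference was -0.01 log2 units, beside 0.02 over all tested genes, and they ran from -0.23 to 0.50. No single knockout array put a neighbour more than 0.90 log2 units above its wild-type mean. In 3 of the 21 all knockout arrays lay above all wild-type arrays, and in 0 all lay below, where 12.3% of all tested genes had all knockout arrays above. For Rhox5, Rhox6 and Rhox9 the lowest knockout array was 1.65, 1.52 and 1.82 units above the highest wild-type array. Rhox5, Rhox6 and Rhox9 were proposed from this contrast and the neighbours were not, so nothing is read from the gap between them.

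The 2 neighbours with the smallest p were Zcchc12 and Ndufa1. Zcchc12, a zinc finger protein of the nervous system, read 33.1, 52.2 and 35.6 units in knockout, against 24.4, 27.7 and 32.3 units in wild type, a difference of 0.50 ± 0.22 (SE over 3 and 3 arrays, limma adjusted p = 0.231). Ndufa1, a subunit of respiratory complex I, read 3683, 4194 and 5412 units in knockout, against 4945, 5448 and 4980 units in wild type, a difference of -0.23 ± 0.13 (0.359). Zbtb33, which encodes the methyl-CpG binding factor Kaiso and is the first tested gene beyond Rhox13, differed by -0.05 ± 0.13 (limma adjusted p = 0.883). Rnf113a1, the last tested gene ahead of Rhox5, differed by 0.02 ± 0.17 (limma adjusted p = 0.958). These last 2 were named for their position after their values were seen.

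**Figure D3:**
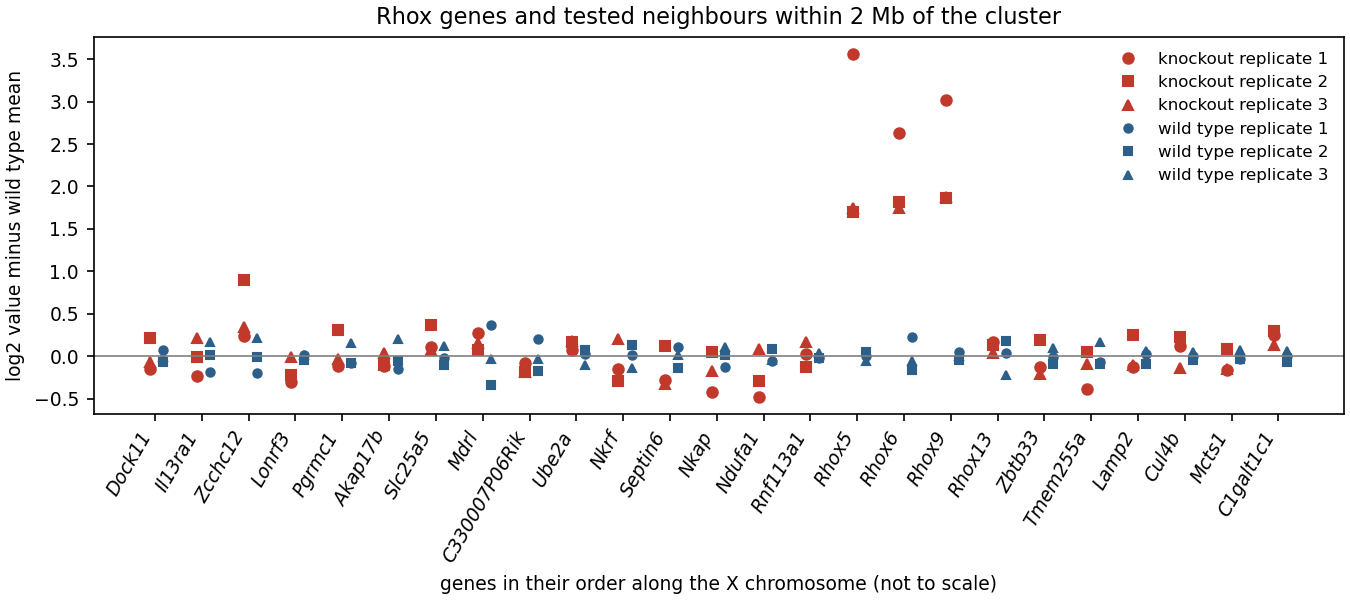
Log2 value minus the wild-type mean on each knockout array (red) and each wild-type array (blue), for the 4 Rhox genes and their 21 tested neighbours, in chromosome order and not to scale. The points of Rhox5, Rhox6 and Rhox9 on knockout arrays are far above 0, while Rhox13 and the genes on both sides stay between -0.47 and 0.90.

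Of 23 genes reported or proposed to act on Rhox promoters, 21 were on the array and 19 were tested. Sp3 rose, 0 fell and 18 did not pass, with 2 at an unadjusted p under 0.05, where 1.28% of all tested genes rose and 17.4% were at an unadjusted p under 0.05. The median difference of the list was -0.05 log2 units, beside 0.02 over all tested genes. Sp3 read 83.9, 70.2 and 68.8 units in knockout, against 47.5, 46.7 and 46.7 units in wild type, so its groups did not overlap. It was 1.58-fold higher in knockout (0.66 ± 0.17, SE over 3 and 3 arrays, limma adjusted p = 0.0466). The call ended on leaving out any one of the 6 arrays, with the filter at log2 5 and with the replicate number as a block. Sp1, the other SP gene listed, differed by -0.05 ± 0.11 (limma adjusted p = 0.859). The listed ETS family genes Gabpa, Elf1, Ets1 and Ets2 differed by -0.01, -0.05, -0.11 and -0.23. No tested probe set of Sp1 or of these ETS genes passed. They are named here by family, after their values were seen.

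Genes for enzymes that set DNA methylation, and for Uhrf1, did not pass through their brightest probe sets, though 1 other Dnmt3a probe set did. Dnmt1, the maintenance methyltransferase, differed by -0.04 ± 0.08 (SE over 3 and 3 arrays, limma adjusted p = 0.806), Dnmt3a by -0.12 ± 0.08 (0.463) and Dnmt3b, both of which methylate new sites, by -0.12 ± 0.16 (0.732). All 5 tested Dnmt3a probe sets read lower in knockout, and 1 of them fell by 0.82 ± 0.20 (limma adjusted p = 0.042). Uhrf1, which brings DNMT1 to replicated DNA, differed by -0.03 ± 0.17 (limma adjusted p = 0.956), and the H3K9 methyltransferases Ehmt2 and Setdb1 differed by 0.22 ± 0.15 (0.434) and 0.28 ± 0.19 (0.457). These genes, other than Sp3, were picked from the list by role after their values were seen.

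Kdm6a, whose product removes a Polycomb mark and which escapes X inactivation, read 214, 293 and 374 units in knockout, against 401, 389 and 301 units in wild type. Knockout replicate 1, highest for Rhox6 and Rhox9, was the lowest array for Kdm6a. The groups overlapped, and the difference of -0.34 ± 0.21 did not pass (SE over 3 and 3 arrays, limma adjusted p = 0.423). Without knockout replicate 1 it was -0.13. Kdm5c, another demethylase gene that escapes, differed by -0.20 ± 0.12 (limma adjusted p = 0.375) through its brightest probe set, and another of its probe sets fell by 0.70 ± 0.14 (0.0128).

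Stra8, a gene required for meiotic entry, read 824, 469 and 479 units in knockout, against 575, 664 and 692 units in wild type. Knockout replicate 1 lay above the wild-type arrays and the other knockout arrays below them. The difference of -0.17 ± 0.21 did not pass (SE over 3 and 3 arrays, limma adjusted p = 0.704).

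Genes with RHOX5-dependent levels in Sertoli cells were few on these arrays, with 3 of 6 tested. Unc5c fell, 0 rose and 2 did not pass, with 1 at an unadjusted p under 0.05, where 2.27% of all tested genes fell and 17.4% were at an unadjusted p under 0.05. Unc5c, a netrin receptor gene that RHOX5 is reported to repress in Sertoli cells, read 644, 920 and 1079 units in knockout, against 1590, 1614 and 1553 units in wild type. The groups did not overlap, and knockout replicate 1 had the most Rhox5 and the least Unc5c. On knockout replicates 2 and 3, Rhox5 read 234 and 242 units while Unc5c read 920 and 1079. Whether Rhox5 acts on Unc5c in these ovaries was not tested. Unc5c fell by 0.88 ± 0.17 log2 units (SE over 3 and 3 arrays, limma adjusted p = 0.013). Its second probe set gave a fall of 1.05 ± 0.20 (limma adjusted p = 0.00998). Without knockout replicate 1 it differed by -0.67 (limma adjusted p = 0.0185). The call ended without any one of wild-type replicates 1, 2 and 3. Robo1 differed by -0.26 ± 0.15 (limma adjusted p = 0.371) and Pparg by 0.34 ± 0.26 (0.52), while Ins2, Adipoq and Retn were under the filter level.

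Of 21 listed X-linked genes of germ cells, 17 were on the array and 10 were tested, with 0 that rose, Tsx that fell, and 9 that did not pass. That is 1 lower call of 10, where 2.27% of all tested genes fell, and 2 genes at an unadjusted p under 0.05, where 17.4% of all tested genes were. The median difference was -0.22 log2 units, beside 0.02 over all tested genes. Tsx, a gene beside Xist, read 11.2, 14.8 and 13.96 units in knockout, against 37.6, 21.5 and 32.4 units in wild type. All 3 knockout arrays were under the filter level, so Tsx was tested only through its higher wild-type values, and it was at least 1.86-fold lower in knockout (limma adjusted p = 0.0151). The call ended with the filter at log2 5, without knockout replicate 1 and without any one of wild-type replicates 1, 2 and 3. Without knockout replicate 3, Tktl1, an X-linked transketolase-like gene, also fell (-0.69, limma adjusted p = 0.0322). The germ cell genes Tex11 and Taf7l differed by 0.02 ± 0.16 (SE over 3 and 3 arrays, limma adjusted p = 0.956) and 0.03 ± 0.16 (0.95), and Esx1, another X-linked homeobox gene of placenta and testis, was under the filter level on all arrays.

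Of 18 germline genes whose promoters depend on DNA methylation, 16 were on the array and 14 were tested. Tex19.1 and Tdrd12 rose, 0 fell and 12 did not pass, with 6 at an unadjusted p under 0.05, where 1.28% of all tested genes rose and 17.4% were at an unadjusted p under 0.05. The median difference was 0.32 log2 units, beside 0.02 over all tested genes. Tex19.1 read 183, 83.4 and 58.1 units in knockout, against 24.5, 39.0 and 26.1 units in wild type (1.72 ± 0.37, SE over 3 and 3 arrays, limma adjusted p = 0.0216). Like Rhox5, it was highest on knockout replicate 1 with groups that did not overlap, and without that array it differed by 1.25 (limma adjusted p = 0.0289). Its call ended without wild-type replicate 1 or 3. Tdrd12, a tudor domain protein of the piRNA pathway, differed by 0.83 ± 0.21 (limma adjusted p = 0.0404) and lost its call without knockout replicate 1 or 3, without any one of wild-type replicates 1, 2 and 3, with the filter at log2 5, with the replicate number as a block and with averaged probe sets. The list had 1 call without knockout replicate 1, 4 without knockout replicate 3, 1 without wild-type replicate 2 and 0 without wild-type replicate 1 or 3.

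**Figure D4:**
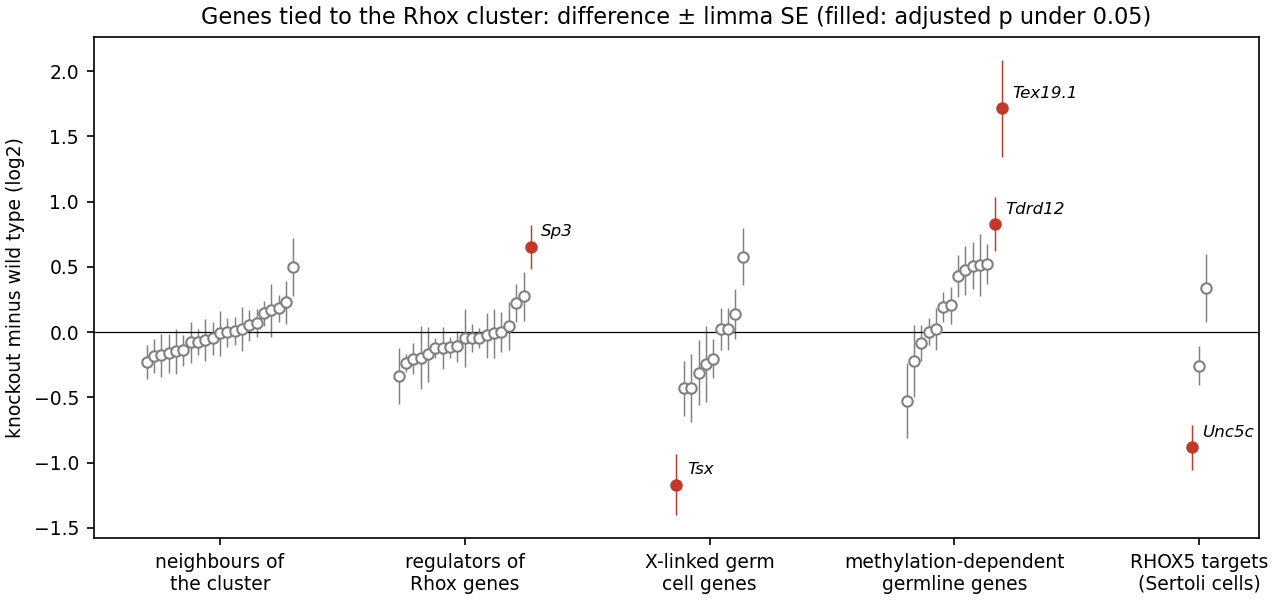
Knockout minus wild-type difference in log2 units with limma's SE for each tested gene of 5 lists. Filled red points passed the limma test after adjustment over all tested probe sets (Sp3, Tsx, Tex19.1, Tdrd12 and Unc5c), and open grey points did not. Each gene stands by its brightest tested probe set, and Tsx was under the filter level on all knockout arrays.

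Markers of cell types in the ovary were summed on each array. The summed intensity of 6 germ cell markers, of which 6 were measured, was 13798, 10739 and 9081 units in knockout, against 8358, 9528 and 8322 units in wild type, so the ranges overlapped. Of these 6 markers 1 rose, Dppa3, where 1.28% of all tested genes rose. Dppa3 read 1182, 197 and 76.8 units in knockout, against 12.2, 12.1 and 18.8 units in wild type. Only wild-type replicate 3 reached the filter level, so Dppa3 was tested only through its higher knockout values. Ddx4, Dazl, Mael, Sycp3 and Tex14 did not pass through their brightest probe sets. Dazl, which encodes an RNA-binding protein of germ cells and is also on the methylation list, differed by 0.48 ± 0.19 (SE over 3 and 3 arrays, limma adjusted p = 0.183) there, and its dimmer probe set rose by 1.34 ± 0.34 (0.0456). The summed intensity of 6 markers of pluripotent cells was 768, 272 and 120 units in knockout, against 78.4, 84.0 and 96.3 units in wild type, with Tdgf1 under the filter level on all arrays. Of these markers 3 were tested and 1 of them, Sox2, rose, where 1.28% of all tested genes rose. Pou5f1 (1.53 ± 0.52, limma adjusted p = 0.122) and Nanog (1.47 ± 0.52, 0.139) did not pass. Zfp42 and Esrrb were not tested. Sox2, a pluripotency factor also made in early germ cells, read 265, 95.6 and 23.9 units in knockout, against 4.23, 6.13 and 9.57 units in wild type. Its wild-type arrays were all under the filter level, so it was tested only through its higher knockout values, and it was at least 5.28-fold higher in knockout (limma adjusted p = 0.00916). Both sums were highest on knockout replicate 1, as were Rhox5, Rhox6 and Rhox9. On knockout replicates 2 and 3 the pluripotency sum was 272 and 120 units, where these Rhox genes were nearly level. Whether the cells behind these sums bear on the Rhox values was not tested. All 6 granulosa lineage markers were above the filter level, and their sum was 12684, 13300 and 13317 units in knockout, against 12261, 11704 and 11699 units in wild type.

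Markers of the other tissues that make much Rhox5, Rhox6 or Rhox9 were measured too, but few were tested. These were 3 Sertoli cell, 1 trophoblast and 2 duct markers, and 0 of them passed the limma test, where 3.55% of all tested genes did. At an unadjusted p under 0.05 were 2 Sertoli cell, 1 trophoblast and 0 duct markers, where 17.4% of all tested genes were. The tested Sertoli cell and trophoblast markers all read lower in knockout, and the 2 duct markers higher. Of 9 trophoblast markers 5 were on the array, with Ascl2, Hand1, Tpbpa and Esx1 under the filter level on all arrays. The sum of the 5 was 64.1, 48.4 and 35.1 units in knockout, against 53.6, 105 and 112 units in wild type. Only Peg10 was tested, at 38.4, 27.0 and 9.01 units in knockout, against 29.35, 80.45 and 85.6 units in wild type. The trophoblast sum thus rests on 1 gene above the filter level. For Sertoli cells, Amh and Cyp26b1 were under the level on all arrays, and the sum of 6 markers was 641, 921 and 1049 units in knockout, against 1152, 1153 and 1076 units in wild type. Most of that sum was Ptgds, a prostaglandin D synthase gene, at 515, 783 and 940 units in knockout, against 1027, 1016 and 935 units in wild type. Of 4 markers of the mesonephric duct and epididymis 3 were on the array, with Lcn5 under the level and a sum of 228, 228 and 230 units in knockout, against 221, 180 and 191 units in wild type. The groups of this sum did not overlap. Pax8, a gene of the duct epithelium, read 136, 158 and 164 units in knockout, against 159, 123 and 135 units in wild type. Lhx1, the other tested duct marker, read 88.5, 66.6 and 62.6 units in knockout, against 58.75, 51.9 and 51.6 units in wild type. Its knockout arrays all lay above its wild-type arrays, with knockout replicate 1 highest, where 12.3% of all tested genes had all knockout arrays above. Lhx1 differed by 0.41 ± 0.19 (limma adjusted p = 0.255). The part of these markers in the Rhox differences was not tested.

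Over the whole series, Pearson r between arrays was 0.985 to 0.993 inside a group and 0.973 to 0.980 across groups. Of 22040 tested probe sets 6.6% were called, with 321 higher and 1134 lower in knockout. When each array was centred on its median, 871 were higher and 809 lower. Array medians lay 0.14 log2 units lower in knockout, and centring moved the median difference of tested genes to 0.16, against 0.02 as deposited, and that of the neighbours to 0.13, against -0.01. The differences of Rhox5, Rhox6, Rhox9 and Rhox13 became 2.47, 2.201, 2.39 and 0.25 on that scale.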

How the data were processed

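The deposited values are GCRMA intensities on a linear scale for 6 arrays, made by the authors with GCRMA per the submitters' processing notes, with version and settings not given in the sources used here. GCRMA pulls weak signals towards a common low value, no detection calls come with the values, and precision is limited by how many arrays there are.

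After log2 transformation and removal of 64 control probe sets, those that reached log2 4 on at least 3 arrays were tested. Symbols came from the platform annotation and were checked by gene identifier against RefSeq (GRCm38.p6), which held 34754 of 34958 single-gene probe sets. That table also gave chromosomes and gene order. The knockout against wild-type fit used limma (version 3.58.1, R 4.3.3; lmFit, eBayes with trend, genotype as the only term, 2-sided), with Benjamini-Hochberg adjustment over all tested probe sets and a threshold of 0.05. Genes were counted through their tested probe set with the highest mean over the 6 arrays, in every setting. The fit was tested on simulated data. No 2 arrays held identical values.

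Named are the 4 members, the genes past the threshold in each list or, where none passed, the 2 with the smallest p, Xist, Kdm6a and Stra8, and the 3 genes most correlated with each member. Others are marked in the text or stand as examples of their list, chosen after their values were seen. The members, the lists and the tests were chosen with earlier results of these data known.

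Alternatives were no filter, a filter at log2 5, eBayes without trend or robust, quantile normalization, median centring, the replicate number as a block, averaged probe sets, floors at log2 4 or 5, and leaving out each array.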

Additional observations from a re-analysis of the deposited data

How the results depend on the processing

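Without each array in turn, the differences ran from 1.72 to 2.65 log2 units for Rhox5, 1.78 to 2.22 for Rhox6, 1.87 to 2.45 for Rhox9 and 0.002 to 0.20 for Rhox13. Under quantile normalization, median centring, averaged probe sets and the 2 floors they ran from 2.34 to 2.47, 2.06 to 2.201, 2.25 to 2.39 and 0.11 to 0.25. The other 38 Rhox genes had no tested probe set, so no alternative gave a value for them. The X-linked median stayed -0.10 to -0.004 from the autosomal one in all fits run. Calls among the neighbours were 0 in every fit.

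Of all tested probe sets 1455 were called, against 3282 with no filter, 956 with the filter at log2 5, and 536 to 1399 without single arrays, with 541, 536 and 606 without wild-type replicates 1, 2 and 3. For the other lists the calls without single arrays ran from 0 to 4 for methylation-dependent genes (2 on all arrays), and, each with 1 call on all arrays, from 0 to 2 for X-linked germ cell genes and 0 to 1 for RHOX5 targets, while regulators had 0 without any one array. With the filter at log2 5 methylation-dependent genes had 1 call, regulators 0 and X-linked germ cell genes 0. Averaged probe sets left 1 methylation-dependent call, no filter gave 2 RHOX5 targets (Ins2 added) and quantile normalization 2 regulators (Ets2 added). The cause of these moves was not tested.

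Replicate numbers did not pair the samples, since same-numbered deviations correlated at -0.247 to -0.165. With the number as a block 1043 probe sets, 1 methylation-dependent gene and 0 regulators were called.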

Other observations

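Outside the Rhox cluster, the 5 X-linked genes with the largest differences towards knockout were AU015836, Xlr4c, Trap1a, Mageb16 and 4930550L24Rik, chosen here after their values were seen. AU015836 read 363, 254 and 162 units in knockout, against 55.3, 52.3 and 56.1 units in wild type, and rose by 2.17 ± 0.26 log2 units (SE over 3 and 3 arrays, limma adjusted p = 0.000923). Xlr4c, of an X-linked lymphocyte-regulated family, read 25.6, 23.1 and 18.3 units in knockout, against 8.06, 9.60 and 11.0 units in wild type. Its wild-type arrays were all under the filter level, so it was tested only through its higher knockout values, and it was at least 1.38-fold higher in knockout (limma adjusted p = 0.00521). Trap1a read 427, 165 and 111 units in knockout, against 101, 82.1 and 83.8 units in wild type, and did not pass (1.16 ± 0.40, limma adjusted p = 0.125). Mageb16, of the MAGE family, read 80.9, 40.2 and 40.8 units in knockout, against 22.0, 23.9 and 27.0 units in wild type, and rose (1.08 ± 0.27, limma adjusted p = 0.0428). 4930550L24Rik read 282, 112 and 128 units in knockout, against 94.2, 69.6 and 78.9 units in wild type, and did not pass (0.99 ± 0.31, limma adjusted p = 0.0997). As with Rhox5, Rhox6 and Rhox9, knockout replicate 1 was the highest array for all 5, and for Mageb16 knockout replicates 2 and 3 nearly coincided. The 5 genes were ranked by a difference that includes knockout replicate 1, so nothing is read from its place on top.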
